A study of Mus musculus with 4 samples.

Results

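Ribosomal protein genes were examined in the prefrontal cortex of transgenic mice overexpressing human synaptic AChE (acetylcholinesterase, which cleaves the transmitter acetylcholine) and of FVB/N control mice. Members were taken by name from the platform's gene annotation: probe sets listed under a single symbol of a cytosolic ribosomal protein (Rpl or Rps and a digit, Rplp0 or Rpsa, without the Rps6k kinases) or of a mitochondrial one (Mrpl or Mrps). They numbered 96 of the 8251 genes that the annotation names singly, with 125 of 12422 probe sets: 35 cytosolic genes (49 probe sets) and 61 mitochondrial genes (76 probe sets). There were 2 arrays of transgenic cortex and 2 of control cortex, and each array held total RNA pooled from 4 female mice. No label states that both pools of a group were drawn from separate animals, so a p-value here reflects the spread of these arrays alone, and that spread may be technical. The labels give neither the promoter and founder line of the transgene nor the strain of its carriers, so transgene and strain background cannot be told apart. With so few arrays, their number limits the precision.

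As background, each ribosome has a small subunit that reads the mRNA and a large subunit that joins the amino acids. Cytosolic ribosomes translate most cellular mRNAs, in neurons also in dendrites, whereas mitochondrial ribosomes translate the few mRNAs of the mitochondrial genome for the respiratory chain. Both sets of proteins are encoded in the nucleus and built in the cytosol. The mRNAs of cytosolic ribosomal proteins are known as TOP mRNAs, because they start with a tract of pyrimidines through which the mTOR pathway controls their translation. Those of mitochondrial ribosomal proteins are not known for this tract.

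The longest unbroken run of C and T within 50 bases on either side of an annotated start is shown here for the genes that passed the test below, as a pyrimidine run near the start. It need not be the tract with which the mRNA begins. Sequences are from RefSeq (GRCm38.p6), 30 bases each, on the gene's own strand, with the run in capitals. Where a gene had several annotated starts, the one with the longest run is printed.
Rps19, chr7:24884622-24884651, plus strand: accccgtcgTTCCCTTTCCCCTggctggca
Rpl10a, chr17:28328572-28328601, plus strand: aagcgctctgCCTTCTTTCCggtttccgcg
Rps28, chr17:33824567-33824596, minus strand: tctgtcccgaggaTTCCTgggtaccgcgtg
Rps3a1, chr3:86142623-86142652, minus strand: acgtagacggcgCTCCCCgcccggctcgcg
Rps13, chr7:116334161-116334190, minus strand: tgagtggcgtcaCTTCCTgtgcggcttgat
Mrpl45, chr11:97315702-97315731, plus strand: tgcccgcgcgCCCCTCCCCTggagagcgtg
Mrps25, chr6:92184015-92184044, minus strand: cgccgggaagtgCCTCCCaagattcccgga

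The run was 13 bases long in Rps19 and 10 in Rpl10a and Mrpl45, and 5 or 6 bases long in Rps28, Rps3a1, Rps13 and Mrps25. Counted from the annotated start base as 0, with upstream negative, the run began at -45 in Rps19, 17 in Rpl10a, -21 in Rps28, 28 in Rps3a1, 12 in Rps13, -4 in Mrpl45 and -9 in Mrps25. None of these runs began at the annotated start. Of 37 start windows of cytosolic members (28 of 35 genes matched), 64.9% held a run of at least 8 bases, against 33.3% of 60 windows of mitochondrial members (54 of 61 genes matched) and 35.7% of all 32851 windows. The letters CCGGAA, the core of sites bound by ETS factors such as GABPA, were searched on both strands of the whole 300-base window (TTCCGG on the other strand). They stood in 45.9% of the cytosolic windows, 51.7% of the mitochondrial ones and 14.9% of all windows. Counted per gene with any such window, the order of the classes turned, with 60.7% of cytosolic, 51.9% of mitochondrial and 16.7% of all genes. An annotated start can differ from the start used in the cortex, so these matches describe the letters only.

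Cytosolic ribosomal protein mRNAs read slightly higher in the transgenic pools as a class, and mitochondrial ones did not. The median log2 change (transgenic minus control) was 0.29 over the 32 cytosolic probe sets bright enough to be tested, a ratio of 1.23, and 0.00 over the 65 mitochondrial ones, against -0.03 over all 7453 tested probe sets. The quartiles were 0.06 and 0.39 for the cytosolic class and -0.10 and 0.25 for the mitochondrial class. The change lay above 0 for 26 of 32 cytosolic and 34 of 65 mitochondrial probe sets, against 45.8% of all tested probe sets. The difference between the classes was not tested. In 23 of the 32 cytosolic probe sets both transgenic pools read above both control pools, and in 2 both read below. Among the mitochondrial ones this was so for 15 above and 11 below. Over all tested probe sets the groups stood apart upward in 23.8% and downward in 29.9%.

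Single probe sets passed the test in small numbers: limma across all tested probe sets with Benjamini-Hochberg adjustment called 6 cytosolic probe sets higher and 1 lower, and 3 mitochondrial ones higher and 0 lower. The share called over all tested probe sets was 5.46% upward and 4.56% downward. The cytosolic share called higher was 18.8%, and the mitochondrial share was 4.62%, near the background. The 6 cytosolic probe sets called higher belonged to 4 of the 26 cytosolic genes tested. At an unadjusted p under 0.05, 16 cytosolic probe sets were higher and 2 lower, and 5 mitochondrial ones were higher and 3 lower. At that cut 11.2% of all tested probe sets were higher and 13.1% lower, against 50% and 6.25% of the cytosolic and 7.69% and 4.62% of the mitochondrial ones. Without transgenic replicate 1 or transgenic replicate 2 the cytosolic count called higher was 1 in each case, while the cytosolic median was 0.30 and 0.34. In bulk tissue, a change in the share of a cell type and a change in RNA per cell cannot be told apart.

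**Figure D1:**
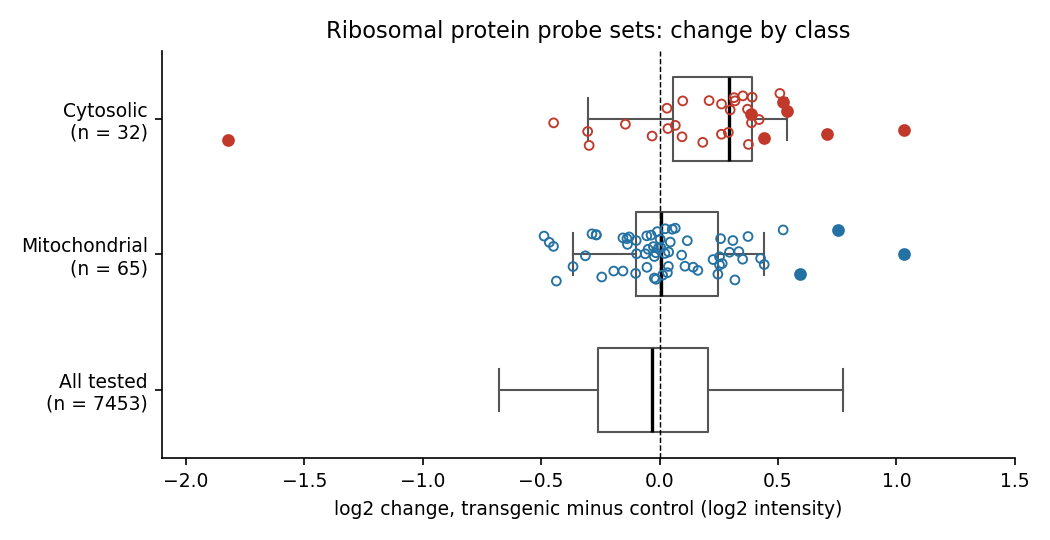
Log2 change (transgenic minus control) of each tested probe set of the cytosolic and mitochondrial classes (points, filled where the adjusted p passed 0.05), with boxes for median and quartiles and whiskers at the 5th and 95th percentiles, and the box of all 7453 tested probe sets at the bottom. The cytosolic median (0.29) lies to the right of the mitochondrial median (0.00), while the boxes overlap in part. Of the 32 cytosolic points 6 lie below 0, the lowest at -1.82.

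The same shift stood in each pairing of a transgenic with a control array. The median log2 difference over the 32 cytosolic probe sets was 0.30 and 0.34 for the first transgenic pool over the first and second control pool, and 0.27 and 0.27 for the second transgenic pool. Between arrays of the same group it was -0.07 for the transgenic pools and -0.01 for the control pools (second minus first). For the mitochondrial class the 4 differences between groups ran from -0.05 to 0.15 and those within groups were 0.07 and 0.04. The cytosolic differences between groups exceeded those within groups on every pairing, which was not so for the mitochondrial class. The 4 pairings share arrays and are not independent.

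**Figure D2:**
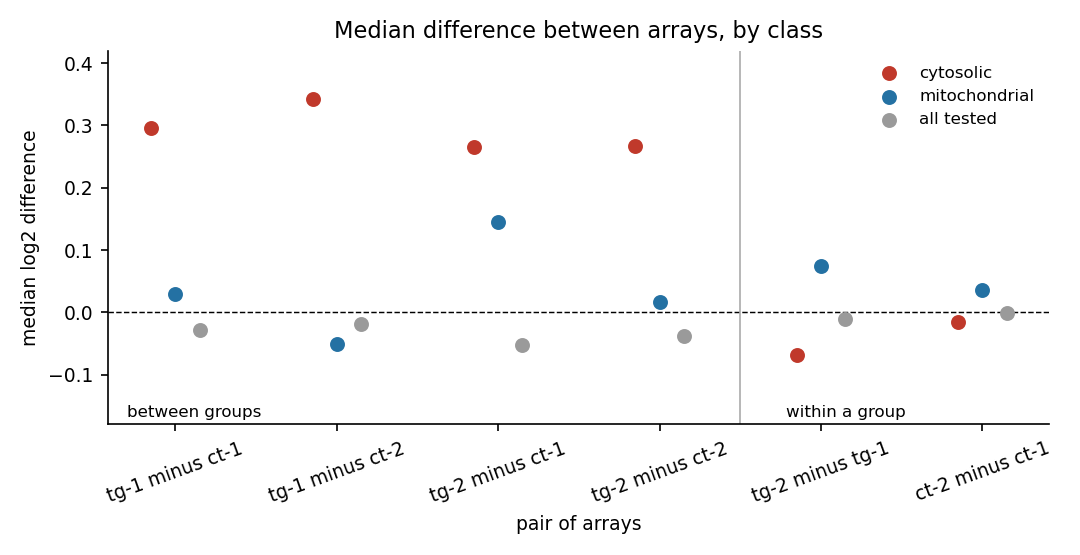
Median log2 difference between 2 arrays over the tested probe sets of each class, for the 4 pairs of a transgenic pool (tg) and a control pool (ct) at left and the 2 pairs within a group at right. Cytosolic medians lie between 0.27 and 0.34 between groups and at -0.07 and -0.01 within groups.

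Arrays and cell markers were compared once for all members. Median intensity was 87.5 and 88.2 in the transgenic pools and 87.4 and 86.6 in the control pools. The 3′ over 5′ ratio of the Gapdh controls was 1.11 and 0.985 in the transgenic pools and 0.963 and 0.839 in the control pools, and that of the Actb controls was 2.49 and 1.67 in the transgenic pools and 1.90 and 1.73 in the control pools. The labelled tissue showed neuronal markers on all arrays (Snap25 6878.0 and 7243.5 in transgenic cortex, against 9424.2 and 8868.3 in control cortex). In the marker lists, rises and falls are probe sets that passed in limma. Over all tested probe sets 5.46% were called higher and 4.56% lower, and lists this short cannot be told from that share. Of 11 tested neuronal probe sets 0 rose and 2 fell (Snap25, -0.37 ± 0.09, adjusted p = 0.0359, and Camk2a at 93660_at, -1.54 ± 0.35, 0.0241). The summed intensity of the neuronal list was 21100.5 and 22747.1 in the transgenic pools, against 24779.6 and 24258.9 in the control pools. Blood genes moved with the groups. Both tested blood probe sets (2 of 5 listed genes, Hba-a1 and Alas2) rose, with a summed intensity of 8472.8 and 6945.1 in the transgenic pools, against 2779.4 and 2396.4 in the control pools. Of 5 tested endothelial probe sets 2 rose, both of Flt1, and the summed intensity of that list was 1108.7 and 1003.4 in the transgenic pools, against 667.3 and 689.9 in the control pools. Of 5 tested probe sets of cortical projection neurons 1 rose and 0 fell (Neurod2, log2 change 2.07 ± 0.17, limma adjusted p = 4.0e-05). Of 4 of olfactory bulb and neuroblasts 1 rose and 0 fell (Eomes at 103532_at, 1.58 ± 0.41, adjusted p = 0.0396), with a median of 0.43. Of 6 of choroid plexus and meninges and 1 of striatum 0 passed, and 0 had an unadjusted p under 0.05. Of 11 astrocyte probe sets 2 rose, both of Aqp4, and 1 fell, of S100b. The rise of Aqp4 at 102704_at was the largest change in the marker lists (3.69 ± 0.26, limma adjusted p = 1.5e-05). Of 11 oligodendrocyte probe sets 0 rose and 1 fell (Mobp at 99047_at). Of 10 microglial probe sets 0 rose and 1 fell (Tyrobp, -0.95 ± 0.19, limma adjusted p = 0.0127). The summed intensity of that list was 3517.9 and 3228.9 in the transgenic pools, against 3835.6 and 4097.2 in the control pools. The sums of the groups overlapped for astrocytes (8142.1 and 8928.2 transgenic, against 8575.4 and 8908.3 control), oligodendrocytes, choroid plexus and meninges, and striatum. For cortical projection neurons and for olfactory bulb and neuroblasts both transgenic sums lay above both control sums. The part of RNA quality and of these cell types in the ribosomal protein results was not tested.

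In the small cytosolic subunit 4 of 17 tested probe sets were called higher and 1 lower, with a median change of 0.32. Rps19, a protein needed to mature the small subunit's RNA and mutated in human Diamond-Blackfan anaemia, rose most. Its probe set 94068_at read 1789.0 and 1897.6 in the transgenic pools, against 749.9 and 1080.2 in the control pools. The groups did not overlap, and the control pools differed more from each other than the transgenic pools did. The rise was 2.05-fold (log2 change 1.03 ± 0.17 SE, limma adjusted p = 0.00394). Rps28, which lies near the path by which mRNA leaves the small subunit, read 4279.0 and 3622.7 in the transgenic pools at 100758_at, against 2757.9 and 2672.8 in the control pools, a 1.45-fold rise (log2 change 0.54 ± 0.12, adjusted p = 0.0178). Rps3a1, a protein of the small subunit's platform, read 4769.5 and 4724.1 in transgenic cortex at 101664_at, against 3630.5 and 3636.3 in control cortex. Its arrays of a group nearly coincided, and the rise was 1.31-fold (log2 change 0.39 ± 0.10, limma adjusted p = 0.0364). Here the SE reflects mostly the variance of other probe sets of like intensity, not the spread of Rps3a1 itself. Without the intensity trend in the variance the adjusted p was 0.207.

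Rps13, another small-subunit protein, went the other way. Its only probe set, 93027_r_at, read 43.9 and 56.0 in the transgenic pools, against 166.2 and 184.8 in the control pools. This was a 3.53-fold fall (log2 change -1.82 ± 0.25, adjusted p = 0.00137), the largest change of either sign among the tested members, on a dim probe set with a mean intensity of 113 over the 4 arrays. RefSeq lists several Rps13 pseudogenes, as for many ribosomal protein genes, and probe sequences were not used here, so which copies a probe set reads is uncertain.

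Other bright small-subunit genes had log2 changes from 0.21 to 0.39 that did not pass, at most about that of Rps3a1. Rps7 had a log2 change of 0.39 ± 0.12 (adjusted p = 0.0776), Rps10 0.35 ± 0.11 (0.0714), Rps3, which lines the mRNA entry channel, 0.32 ± 0.10 (0.0785), and Rps18 0.31 ± 0.10 (0.0893). Rps4x had 0.26 ± 0.10 (0.144). Rpsa, a small-subunit protein also known as a laminin receptor, read 1321.4 and 1155.4 in the transgenic pools, against 1095.9 and 1042.5 in the control pools (0.21 ± 0.13, adjusted p = 0.358). In each of these 6 genes both transgenic pools read above both control pools. This was so for 13 of the 17 tested small-subunit probe sets, against 23.8% of all tested ones. Rps27 at 96301_at had -0.14 ± 0.15 (0.604), and its groups overlapped.

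In the large cytosolic subunit 2 of 15 tested probe sets were called higher and 0 lower, with a median change of 0.18. At an unadjusted p under 0.05, 6 of the 15 were higher and 1 lower, against 11.2% and 13.1% of all tested probe sets. Both calls belonged to Rpl10a, a protein of the mobile L1 stalk beside the site where spent tRNA leaves. At 100711_at Rpl10a read 1529.4 and 1626.5 in transgenic cortex, against 1145.5 and 1054.9 in control cortex (1.43-fold, log2 change 0.52 ± 0.12, adjusted p = 0.0237). At 161327_f_at, made from another source sequence, Rpl10a read 876.3 and 1038.0 in transgenic cortex, against 561.2 and 608.7 in control cortex (1.63-fold, log2 change 0.71 ± 0.14, adjusted p = 0.0120). The groups stood apart at both.

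Rplp0, which anchors the acidic stalk that recruits elongation factors, read 2946.1 and 3083.0 in the transgenic pools, against 2709.8 and 2602.8 in the control pools (log2 change 0.18 ± 0.10, adjusted p = 0.330). Rpl7 at 97695_s_at had 0.37 ± 0.11 (adjusted p = 0.0598) and Rpl13a 0.42 ± 0.15 (0.115). Changes were close to 0 for Rpl6 (0.09 ± 0.10, adjusted p = 0.630), Rpl37a (0.03 ± 0.12, 0.897) and Rpl22 (-0.03 ± 0.15 at 92857_at, 0.931). Rpl41, the smallest ribosomal protein, was the only cytosolic member with a mean intensity over 1000 that read lower in both transgenic pools. Its probe set 100213_f_at read 11584.8 and 9934.9 in transgenic cortex, against 13755.8 and 12748.3 in control cortex (log2 change -0.30 ± 0.10, adjusted p = 0.101, 0.0365 with the replicate number as a block, and a log2 change of -0.05 with quantile normalization). The probe sets of Rpl7 (97695_s_at) and Rps24 (97696_r_at, 0.29 ± 0.09, adjusted p = 0.0842) are listed under 1 source sequence, so they may not be independent readings.

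**Figure D3:**
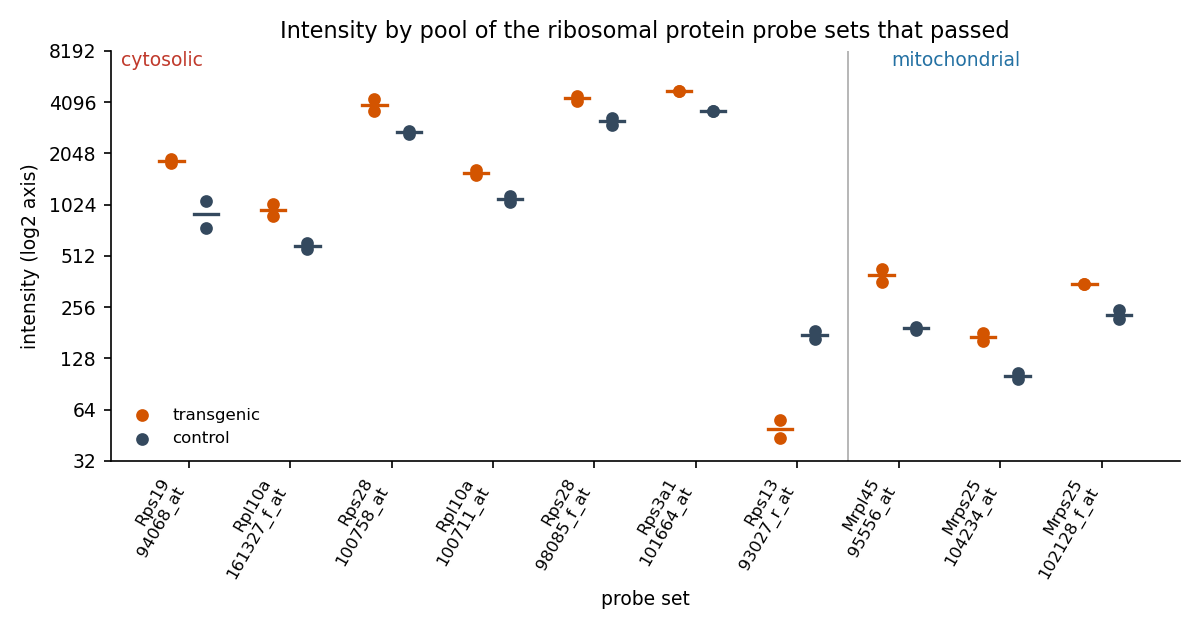
Intensity in each pool (points, log2 axis) and geometric mean of the group (bars) for the 10 ribosomal protein probe sets that passed, transgenic left of control. In 9 of them both transgenic pools lie above both control pools, and Rps13 shows the opposite.

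Most of these calls were not made in every fit that left out 1 array. Leaving out an array leaves 1 sample in its group, which is then assumed to vary like the other group, so these fits say little about stability. Rps13 and Mrpl45 (95556_at) passed in each of the 4. Without transgenic replicate 1, Rpl10a (161327_f_at) was the only other to pass, and without transgenic replicate 2 it was Rps28 (100758_at). Without control replicate 1 the others that passed were Rps19, both of Rpl10a and Rps28 (100758_at), and without control replicate 2 they were Rps19, Rpl10a (161327_f_at) and both of Rps28. Without the filter on dim probe sets 0 of the 10 passed, and without the intensity trend in the variance only Rps13 and Mrpl45 did.

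Among mitochondrial ribosomal proteins the calls were confined to 2 of the 57 genes tested. Mrpl45, which holds the mitochondrial ribosome to the inner membrane near its exit tunnel, read 429.7 and 359.5 in the transgenic pools at 95556_at, against 196.2 and 187.8 in the control pools. This was a 2.05-fold rise with groups well apart (log2 change 1.03 ± 0.17, adjusted p = 0.00394). Mrps25, a small-subunit protein of the mitochondrial ribosome, rose at both of its probe sets, which come from different source sequences. At 104234_at Mrps25 read 161.7 and 180.7 in transgenic cortex, against 105.5 and 97.2 in control cortex (log2 change 0.76 ± 0.21, adjusted p = 0.0477). At 102128_f_at Mrps25 read 349.8 and 348.1 in transgenic cortex, against 219.0 and 244.9 in control cortex (log2 change 0.59 ± 0.16, adjusted p = 0.0458). Both p-values lay just inside the threshold, and adjusted p was 0.0536 and 0.0570 with quantile normalization. Neither probe set of Mrps25 passed with any 1 of the 4 arrays left out, so that the mitochondrial count called higher was then 1.

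The mitochondrial probe sets with the lowest log2 changes did not pass. Mrpl34, a large-subunit protein, read 299.3 and 303.4 in the transgenic pools, against 394.1 and 453.2 in the control pools (log2 change -0.49 ± 0.15, adjusted p = 0.0805). Mrpl4, also of the large subunit, read 743.5 and 730.0 in transgenic cortex, against 961.7 and 1050.5 in control cortex (-0.45 ± 0.13, adjusted p = 0.0545, or 0.0494 when probe sets below the 60th percentile were left out). Mrps34 and Mrps26, both of the small subunit, had -0.44 ± 0.16 (adjusted p = 0.116) and -0.37 ± 0.16 (0.212), and Mrpl9 had -0.31 ± 0.20 (0.395). For these 5 genes both transgenic pools read below both control pools. Such a separation is likely among probe sets picked for low changes. It was seen in 11 of the 65 mitochondrial probe sets, against 29.9% of all tested ones. Mrpl50 at 96861_at had a change between those of Mrpl34 and Mrpl4 (-0.47 ± 0.30, adjusted p = 0.385), and its groups overlapped. On the other side Mrpl46 had 0.52 ± 0.26 (adjusted p = 0.269), Mrpl15 0.44 ± 0.18 (0.170) and Mrpl44 0.43 ± 0.20 (0.219). By subunit, the mitochondrial median was 0.03 over 24 small-subunit and -0.02 over 41 large-subunit probe sets.

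Readings of the same gene were set side by side where more than 1 of its probe sets was tested. Rpl10a and Mrps25 rose at both. Rps28 rose at 100758_at and at 98085_f_at, where it read 4457.9 and 4150.1 in the transgenic pools, against 3017.5 and 3321.0 in the control pools (log2 change 0.44 ± 0.11, adjusted p = 0.0294). Its remaining probe set, the dim 98086_r_at, listed under the same source sequence as 98085_f_at, had -0.30 ± 0.33 (adjusted p = 0.643). Mrpl45 was divided: at 100886_f_at it read 243.9 and 211.5 in transgenic cortex, against 282.5 and 209.4 in control cortex (-0.10 ± 0.20, adjusted p = 0.811), so the rise at 95556_at was not seen there. Mrpl50 was -0.47 ± 0.30 at 96861_at and 0.32 ± 0.27 at 160381_at, with overlapping groups at both. Rpl19 had 0.10 ± 0.10 at the bright 97483_at. At the dim 161961_at its transgenic pools read 134.1 and 22.6, wider apart than the control pools at 58.4 and 96.5. The 4 probe sets of Mrps18a ran from -0.04 to 0.25, and those of Mrpl18 were 0.37 and 0.30. Both of Mrpl18 are listed under the same source sequence, so they may not be independent readings. The same holds for 104767_f_at and 94326_r_at of Mrps18a. Both probe sets of Rps4l, a Rps4x-like gene, lay above 0 at 0.51 ± 0.29 (adjusted p = 0.320) and 0.03 ± 0.35.

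**Figure D4:**
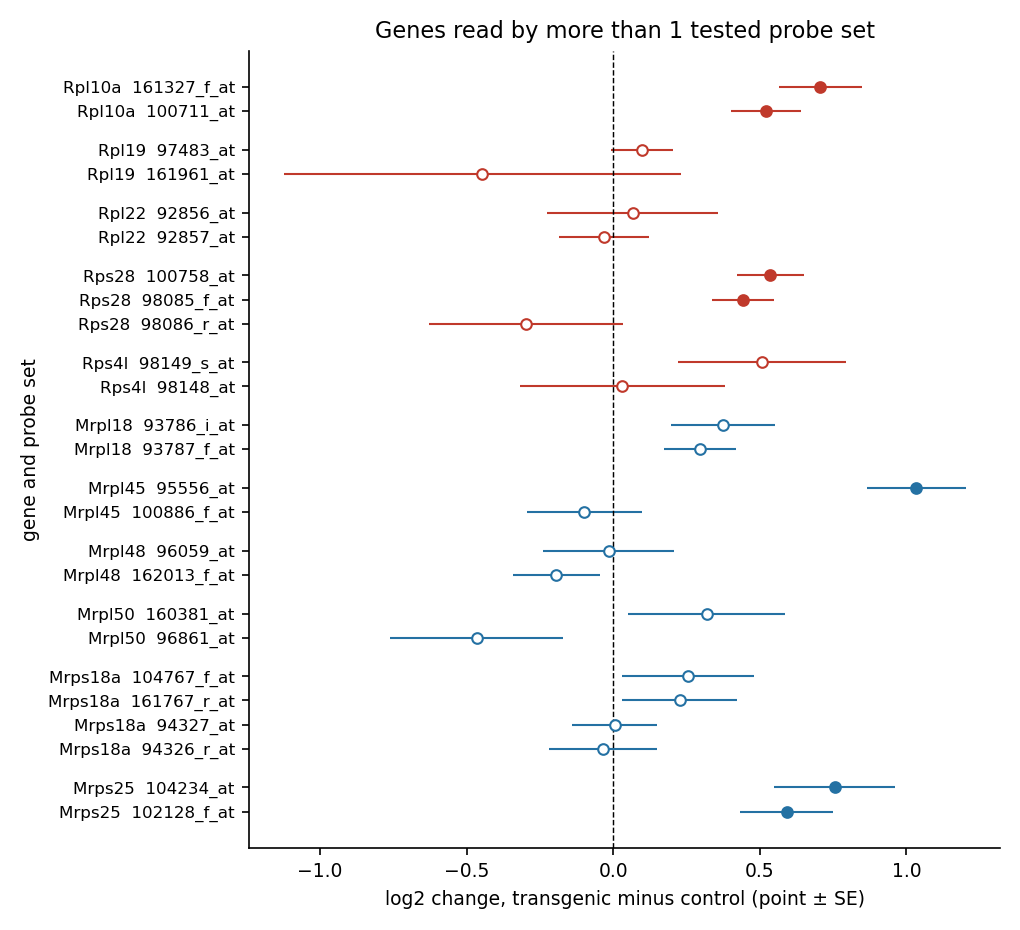
Log2 change with its SE for each tested probe set of the 11 genes read by more than 1, cytosolic genes above mitochondrial ones and filled points where the adjusted p passed 0.05. Rpl10a and Mrps25 lie to the right of 0 at both probe sets, and Mrpl45 at only 1 of its 2.

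Bright and dim probe sets of the cytosolic class were also taken apart, and their difference was not tested. Over the 20 with a mean intensity above 1000 the median log2 change was 0.31, 19 lay above 0, and in 18 both transgenic pools read above both control pools. Over the 12 dimmer tested ones the median was 0.05 and 7 lay above 0. The other 928 bright probe sets of the array had a median of -0.04, and 43.8% of them lay above 0. In 26.3% of them both transgenic pools read above both control pools. Of the mitochondrial class 1 probe set, of Mrpl18, had a mean over 1000. A bright and a dim probe set of different genes differ in their probes, so no order of mRNA levels between genes is drawn.

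**Figure D5:**
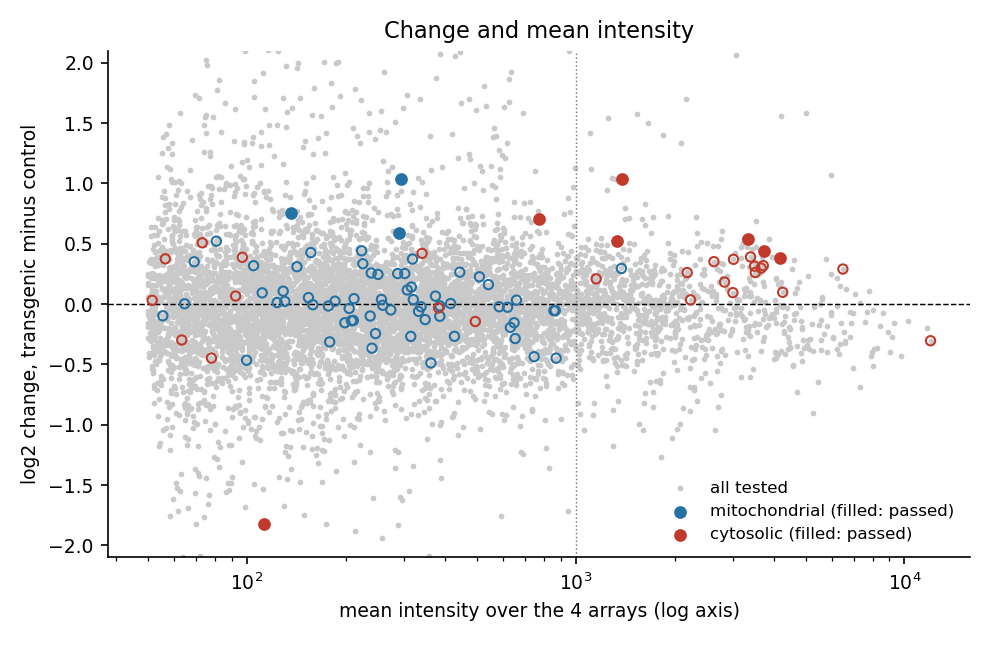
Log2 change against mean intensity over the 4 arrays (log axis) for all tested probe sets (grey), mitochondrial members (blue) and cytosolic members (red), filled where the adjusted p passed 0.05. To the right of the dotted line at 1000 all cytosolic points but 1, Rpl41, lie above 0. The 121 grey points beyond 2.1 log2 units are outside the axis.

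Of the 125 member probe sets, 28 were too dim to be tested, 17 cytosolic and 11 mitochondrial. Their highest single readings were 60.3 and 67.0, and 15 of the 17 and 9 of the 11 had at least 1 array at the intensity floor of 19.675. This left 9 cytosolic genes (Rpl32, Rpl35a, Rpl38, Rpl39, Rpl39l, Rps14, Rps15, Rps20 and Rps27l) and 4 mitochondrial genes (Mrpl14, Mrpl42, Mrpl49 and Mrps16) with no tested probe set. Most of these are core ribosomal genes that every cell uses, so a reading at the floor says nothing of the mRNA's absence. A brighter probe set was tested for Rps4x, whose 4 others were dim, and for Rps24, Rps29 and Rpl7. Rps20 at 94039_at read 4.6 and 7.2 in the transgenic pools, against 28.3 and 27.5 in the control pools. It was the only member called when no filter was applied (limma adjusted p = 0.0489). Both transgenic readings lay below the intensity floor and were set to it. The fit therefore saw no spread between them, and that p-value carries little weight. Rps20 was picked out because of these values.

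A further 9 probe sets are listed under several symbols, all of cytosolic ribosomal protein genes or their pseudogenes and retrogenes, and are not named. Of the 8 tested, 7 lay above 0 and 4 were called higher, with a median log2 change of 0.41. With them the cytosolic class had 10 of 40 probe sets called higher and a median of 0.31. Rps6, the substrate of S6 kinase, Rplp1, Rplp2 and the ribosomal scaffold Rack1 had no probe set under a single symbol in the annotation used.

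Lists of genes around the ribosome were counted in the same way. The list of other TOP mRNAs, which the same 5′ tract marks, had 2 of 16 tested probe sets higher and 1 lower and a median of 0.12. Over all tested probe sets 5.46% were called higher and 4.56% lower. At an unadjusted p under 0.05 in limma, 5 of the 16 were higher and 1 lower, against 11.2% and 13.1% of all tested probe sets. Naca, a chaperone at the ribosome's exit, rose by 0.83 ± 0.14 at 98571_s_at (adjusted p = 0.00470), and Eif3e, a subunit of an initiation factor, by 0.75 ± 0.20 at 160554_at (adjusted p = 0.0431). Hnrnpa1, an RNA-binding protein, fell by 1.27 ± 0.28 (adjusted p = 0.0192) at the dim 92724_at. That probe set read 50.6 and 42.4 in the transgenic pools, against 114.1 and 109.3 in the control pools. The elongation factors Eef1a1 and Eef2 had -0.08 ± 0.10 (0.695) and -0.03 ± 0.11 (0.899), and Tpt1, a very bright TOP mRNA, had 0.22 ± 0.09 (0.189). Of 28 tested probe sets for ribosome assembly 0 passed in limma, with a median of -0.10, and at an unadjusted p under 0.05 there were 5 higher and 2 lower, where 11.2% of all tested probe sets were higher and 13.1% lower. Of 12 for RNA polymerase I and its factors 0 passed, with a median of -0.12, and 0 were higher and 2 lower unadjusted. Among mTOR and S6 kinase genes 0 of 12 were higher and 1 lower, with a median of -0.14. This was Rps6kb2, an S6 kinase, which read 36.0 and 30.3 in the transgenic pools, against 141.8 and 88.7 in the control pools (log2 change -1.76 ± 0.34, adjusted p = 0.0103). Of 12 tested probe sets for mitochondrial translation 0 passed, with a median of 0.07, and 1 was higher and 1 lower unadjusted. Polrmt, the mitochondrial RNA polymerase, came nearest, with -0.63 ± 0.18 at 160738_at (adjusted p = 0.0512).

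The 3 control probe sets for 18S ribosomal RNA, which was not tested, were dim. The 3′ one read 85.3 and 138.2 in the transgenic pools, against 57.8 and 70.8 in the control pools. The middle and 5′ ones read at most 19.3 on every array. This RNA has no poly(A) tail, so how much of it entered the labelling is not known from these values.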

How the data were processed

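Each deposited value is a linear intensity for a probe set on an array, a unit inferred from the values. The tool with which the authors summarized probes is not given in the sources used. Values of the 12422 probe sets without the 66 control probe sets were floored at their 25th percentile (19.675) and log2-transformed with no further normalization. Probe sets with a mean log2 value above the 40th percentile (an intensity of 49.4) were tested, 7453 in all. Two-sided tests of transgenic minus control used limma (version 3.58.1, R version 4.3.3; eBayes on an lmFit model, prior variance following the mean), with Benjamini-Hochberg adjustment over all tested probe sets and a threshold of 0.05. SEs of log2 changes come from that fit. The fit was also run on simulated data with known changes and a variance set by intensity alone. That run did not check the SEs. Folds are 2 to the power of the log2 change. The platform annotation named 10833 probe sets by a single symbol and 396 by several, and left 1193 unnamed.

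The members and lists were chosen with earlier results of these data known. Lists are described by counts and medians of probe sets, without members of the ribosomal classes as defined by symbol. The mitochondrial translation list thus kept Dap3 and Ptcd3, proteins of the mitochondrial ribosome whose symbols the rule does not take. Named member probe sets were those that passed, the 6 largest rises and falls per class, other tested probe sets of genes that passed, Rplp0, Rpsa, the 18S controls and list genes that passed. Other genes were named after their values were seen. Promoter windows came from RefSeq (GRCm38.p6). Normalization, floor, filter, variance model, probe set choice, pairing and each replicate were varied.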

Additional observations from a re-analysis of the deposited data

How the results depend on the processing

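The cytosolic median log2 change kept its sign under each alternative run, from 0.0979 without the filter (49 probe sets, many at the floor) to 0.337. Leaving out 1 array gave cytosolic medians of 0.249 to 0.337 and mitochondrial medians of -0.0501 to 0.0897. The number of calls was less stable. Without the filter 48 probe sets passed in all, with 0 cytosolic and 0 mitochondrial ones higher (adjusted p of the 10 called members 0.131 to 0.242), and the 1 cytosolic probe set called lower was of Rps20, not of Rps13. Without the intensity trend 395 passed in all, 0 cytosolic and 1 mitochondrial one higher, and Rps13 and Mrpl45 alone of the 10 remained. Leaving out 1 array, with the lone sample of its group assumed to vary like the other group, left 389 to 745 calls in all, 1 to 5 cytosolic probe sets higher, 1 mitochondrial one higher, and 3 to 6 of the 10 called members. Mitochondrial probe sets called higher numbered 1 with quantile normalization. Cytosolic ones called lower numbered 0 with a filter at the 60th percentile, at which Rps13 was not tested and 1 mitochondrial one (Mrpl4) was lower, and 0 with plain probe set names only. Membership was also varied after seeing the data, and with probe sets of several ribosomal symbols 10 cytosolic ones were higher. The replicate numbers share no stated litter or day, and same-numbered arrays deviated together at r = 0.0555. With the replicate block 2 cytosolic probe sets were lower (Rps13 and Rpl41) and all 10 called members passed. Among the 18 named members that did not pass, signs reversed 6 times. With a floor at the 40th percentile Rpl19 (161961_at) stood at 0.14. Over the leave-one-out fits Rpl19 (161961_at) ran from -1.73 to 0.84, Rpl22 (92857_at) from -0.14 to 0.079, Rps28 (98086_r_at) from -0.60 to 0.0031, and Mrpl45 (100886_f_at) from -0.31 to 0.12, with 0.0040 without transgenic replicate 2. The cause was not tested.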
